A study of Mus musculus with 12 samples.

Results

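The response of WT follicular B cells of the mouse spleen to 24 h of B cell receptor (BCR) stimulation was described across all genes measured, from 6 of the 12 arrays of the series. The samples were the 3 arrays titled as WT at 0 h and the 3 titled as WT at 24 h, each made from total RNA of splenic follicular zone B cells of male C57BL/6J mice. Cells of the 24 h group had been kept in RPMI1640 medium with 10 µg/mL of Fab' anti-mouse IgM, which binds the IgM of the BCR. No arm was cultured for 24 h without the stimulus, so the effects of 24 h in culture and of anti-IgM cannot be told apart. The other 6 arrays held the same 2 time points of Bach2-/- cells, without the transcription factor BACH2. They entered the filter of probes, the choice of a gene's probe, the shared estimate of the spread and 1 comparison of the responses. Nothing in the labels states whether a replicate was its own mouse or its own culture. The p-values therefore cover only how far these arrays differ, and that spread can be technical.

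A follicular B cell circulates in a quiescent state until antigen crosslinks its BCR, which is made of membrane immunoglobulin with the signaling chains CD79A and CD79B. Kinases of the SRC, SYK and TEC families then open the calcium and NFAT, RAS and ERK, NF-kB and PI3K pathways, and the cell grows and passes from G0 into G1 and S phase. Without a T cell's help or a Toll-like receptor ligand, most such cells do not become plasma cells.

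Values throughout are levels, the log2 of a probe's processed signal over its array's 75th percentile, given in the order of replicates 1, 2 and 3, or changes, the 24 h minus the 0 h level with the SE of the fit. A value shows RNA relative to the rest of the array, so a change in total RNA per cell cannot be seen, and fewer cells of a type and less RNA per cell cannot be told apart. A gene passed the test at an adjusted p under 0.05 (limma, Benjamini-Hochberg over 22744 genes). Replicate 1 of both groups lay on slide 2 and replicates 2 and 3 on slide 1. Replicate 1 at 0 h stood apart, with 66.7% of spots well above background, where the other 5 WT arrays had 53.05% to 56.0%. Deviations from the group means were alike within a replicate number (Pearson r across genes 0.59 to 0.78 for the 3 WT pairs). They were less so between different numbers on the same slide (r 0.40 to 0.56), and opposed across slides (r -0.70 to -0.58). Deviations from a group's mean sum to 0 over its 3 arrays, so part of this opposition is built in. The replicate number was a block of the fit by the rule of the comparison, not because of these values.

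Markers of follicular B cells were found on all 6 WT arrays for 10 of the 10 genes listed and on the array, while no probe carried the symbol Ighm or Ighd. Their summed linear level was 1590 to 2210 times the array's 75th percentile at 0 h and 831 to 1500 at 24 h, and 9 of the 10 fell. Among markers of other cells, the summed T cell level was 137 to 159 at 0 h and 100 to 166 at 24 h, with 1 of 12 tested genes higher and 7 lower, and that of NK cells 10.3 to 14.2 and 9.03 to 11 (0 of 8 higher, 5 lower). Most of the T cell sum at 0 h came from Cd2, whose log2 levels went from 6.72, 6.77 and 6.59 to 2.52, 1.89 and 1.99. At 24 h most of that sum came from other genes of the list. Changes of the T cell genes tested ran from -4.56 (Cd2) to 2.43. Summed levels of macrophage and monocyte genes were 5.19 to 16 at 0 h and 9.20 to 12.7 at 24 h (1 of 7 higher, 2 lower), and those of dendritic cells 299 to 381 and 153 to 348 (0 of 7 higher, 3 lower, and 1 lower without 0 h array 3). Neutrophil genes summed to 255 to 329 at 0 h and 77.7 to 231 at 24 h (0 of 10 higher, 1 lower, and 4 lower without 0 h array 2), and erythroid and platelet genes to 9.28 to 18.4 and 3.32 to 4.46 (0 of 7 higher, 3 lower). Marginal zone B cell genes summed to 203 to 327 at 0 h and 165 to 365 at 24 h (2 of 10 higher, 6 lower, and 2 lower without the block), and B-1 cell genes to 44.3 to 79.7 and 61.0 to 64.6 (5 of 8 higher, 1 lower, and 3 higher without the block). Klrk1 of NK cells, Cd163, Mertk and Fcgr1 of macrophages, Mpo of neutrophils and Xcr1 of dendritic cells were not well above background on any of the 6 arrays. Their part in the falls reported here was not tested.

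The response was broad. Of 22744 genes tested, 10685 changed (47.0%), 6288 rising (27.6%) and 4397 falling (19.3%). At least a 2-fold change was called for 3052 rising and 2420 falling genes, and at least a 4-fold change for 578 and 599. The median change of all genes was 0.041 and 58.8% of the called genes rose. This split depends on the scaling. Dividing each array by the 75th percentile of only the probes above background on all arrays moved the median to -0.117 and the rising share to 47.1%. All 3 replicate pairs moved the same way for 10623 of the called genes, and 10655 had the same sign on both slides. A test with the replicate block favours genes whose pairs agree, so these counts describe the calls and are no separate check of them. Levels of the groups did not overlap for 7820 called genes, and for 38.2% of all genes. A fit without the replicate block called 4667 genes (2606 higher and 2061 lower), all among the 10685, and slide 1 alone called 7037. Gene groups are therefore described by their counts against the background shares of 27.6% and 19.3%.

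**Figure D1:**
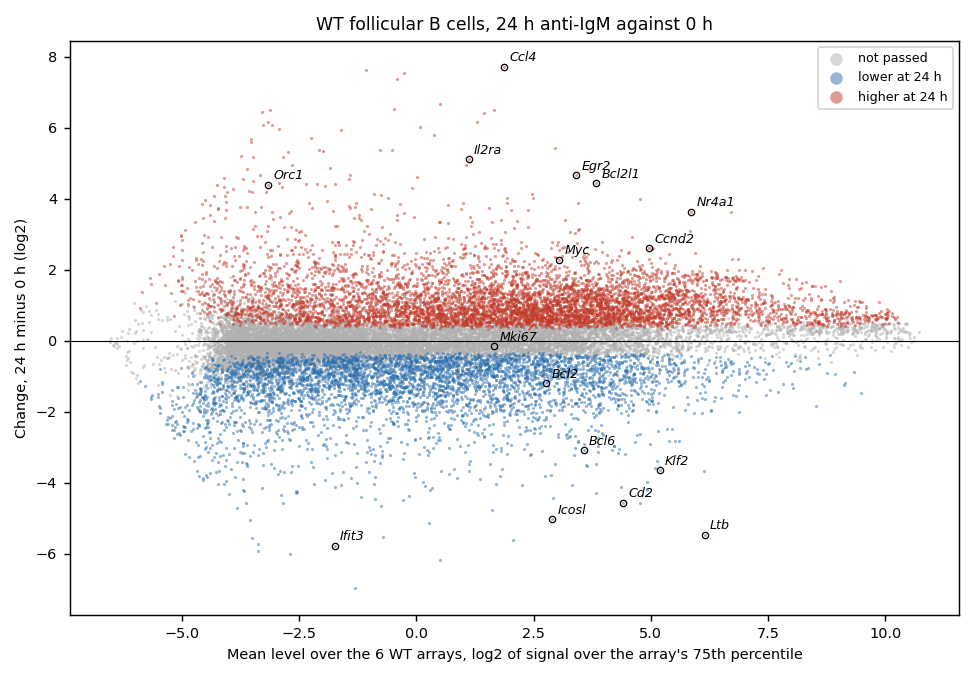
Each point is 1 of the 22744 genes tested, with its mean level over the 6 WT arrays on the x axis and its change, 24 h minus 0 h, on the y axis, both on the log2 scale. Red and blue points passed the test, grey points did not, and circles mark named genes, from Ccl4 at 7.71 to Ifit3 at -5.77.

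Genes of growth and of DNA synthesis lay at the top of the pathway lists and genes of interferon signaling, MHC class II and homing at the bottom. Median changes were highest for ribosome biogenesis (1.59), for nucleotide, serine and one-carbon synthesis (1.53) and for DNA replication (1.52). Among the pathway lists they were lowest for interferon-stimulated genes (-2.30), MHC class II presentation (-1.84) and homing receptors (-1.55). These lists kept the sign of their medians under every alternative setting run.

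**Figure D2:**
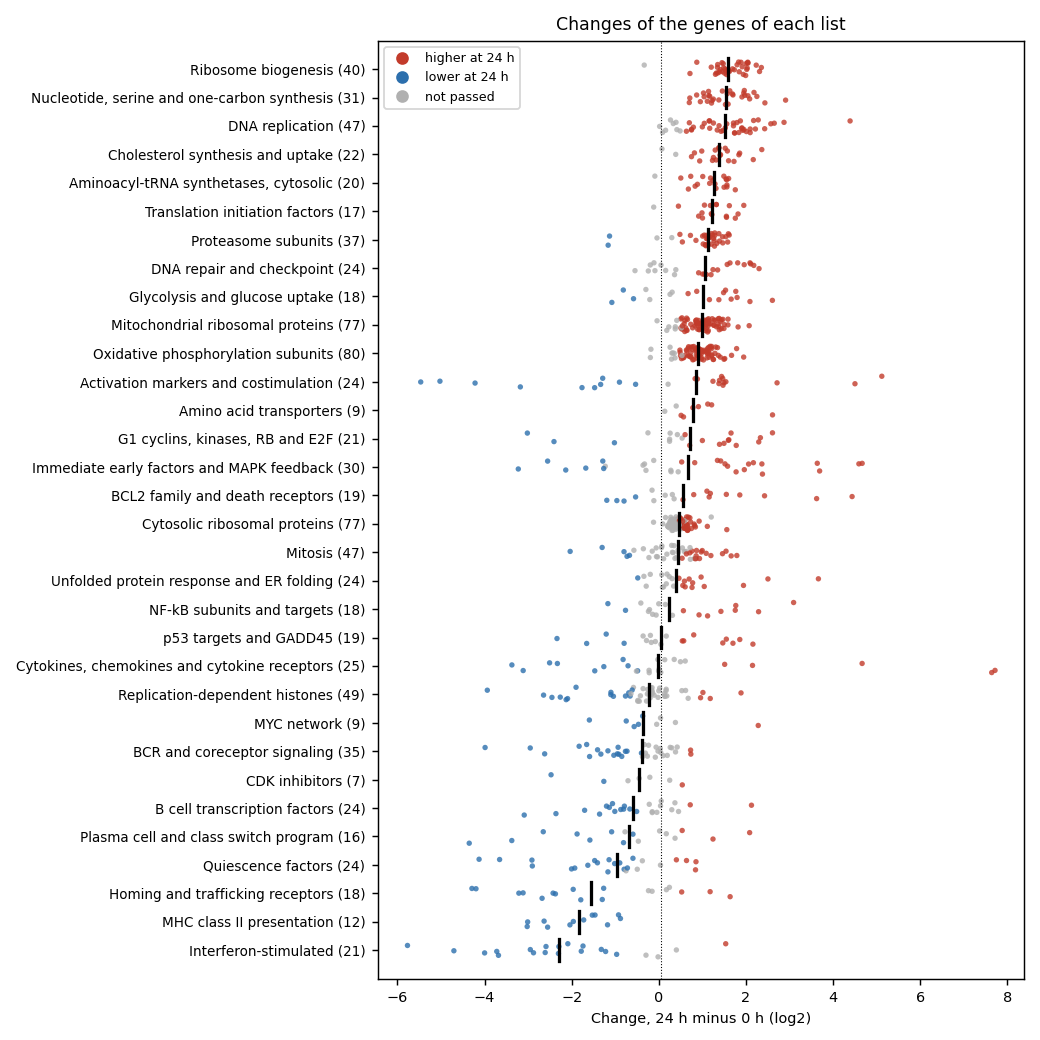
Each point is a tested gene of the list named on the y axis, with the number tested in brackets, at its change, 24 h minus 0 h (log2, x axis). Black bars mark the list's median, the dotted line the median of all genes (0.041), and red, blue and grey points genes that were higher, lower or did not pass.

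Transcripts of the receptor and its proximal signaling fell more often than they rose. Of 35 genes tested, 2 rose and 17 fell (median -0.38), and 16 did not pass. Quantile normalization called 26 lower, and 4 rose without 0 h array 2. Cr2, the complement receptor that amplifies BCR signals, stood at 7.12, 6.71 and 6.92 at 0 h and at 3.26, 2.84 and 2.69 at 24 h. All 24 h arrays were below all 0 h arrays, and the change was -3.99 ± 0.15 (adjusted p 2.2e-07). Bank1, an adaptor of LYN and the calcium channel, fell by 2.95 ± 0.17 (adjusted p 1.8e-06), and Cd22, an inhibitory lectin of the receptor, fell by 2.62 ± 0.18 (adjusted p 5.2e-06). The receptor's own chain gene Cd79a fell by 1.66 ± 0.14, from 4.61, 4.71 and 4.30 to 3.06, 2.85 and 2.74. Pik3ap1, a PI3K adaptor, rose by 0.73 ± 0.16 and was not called on slide 1 alone, and Cd72, a coreceptor, rose by 0.73 ± 0.14 and was not called without the block or under quantile normalization.

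Among immediate early transcription factors and feedback regulators of the MAP kinases, 16 of 30 genes rose and 6 fell. Nr4a1, an orphan nuclear receptor used as a reporter of BCR signaling, stood at 4.41, 3.49 and 4.24 at 0 h and at 8.32, 7.49 and 7.23 at 24 h, a change of 3.63 ± 0.25 (adjusted p 4.7e-06). Egr2, a zinc finger factor downstream of ERK and NFAT, went from 1.19, 0.78 and 1.25 to 5.92, 5.82 and 5.48 (4.67 ± 0.16, adjusted p 1.7e-07). In both, every 24 h array lay above every 0 h array. Egr1 rose by 1.77 ± 0.26 (adjusted p 0.00037). Nr4a3 was not well above background on any 0 h array and was at least 8.05-fold higher at 24 h.

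Fos and Jun, which code for AP-1 subunits, were among the 6 genes that fell. Fos, which codes for a classic immediate early subunit, was at 1.39, -0.42 and 1.66 at 0 h and at -2.22, -2.29 and -2.55 at 24 h, a change of -3.23 ± 0.79 (adjusted p 0.0072), with a wide spread at 0 h. Jun fell by 2.14 ± 0.32 (adjusted p 0.00045), from 5.03, 4.68 and 4.85 to 3.06, 2.42 and 2.68. The phosphatase genes of the MAP kinases differed as well, Dusp4 rising by 3.69 ± 0.31 (adjusted p 1.4e-05) and Dusp6, whose product acts on ERK, falling by 2.55 ± 0.17 (adjusted p 3.5e-06).

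Of 18 genes of NF-kB subunits and targets, 8 rose (5 without the block) and 2 fell, with a median of 0.23 that turned to -0.18 under quantile normalization, where 6 fell. Without 0 h array 2 or 3 or 24 h array 2 or 3, 1 fell. Inhibitors of the pathway were among those that rose. Nfkbid, which codes for the nuclear inhibitor IkBNS, went from 4.92, 3.95 and 3.98 to 8.23, 6.88 and 7.01 (3.09 ± 0.21, adjusted p 4.0e-06), and Nfkbie, coding for IkB epsilon, rose by 1.76 ± 0.18. Cflar, coding for the caspase-8 inhibitor FLIP, rose by 2.29 ± 0.18. Birc3, an inhibitor of apoptosis gene, fell by 1.17 ± 0.13, a call lost without the block (adjusted p 0.055). Bcl3, an IkB family member, fell by 0.77 ± 0.23 and lost its call in 6 settings, among them a fit of the 6 WT arrays alone and the removal of 0 h array 2 or 3 or of 24 h array 2 or 3 (adjusted p up to 0.13).

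Surface molecules of activated B cells did not move as a group, with 13 of 24 genes rising and 10 falling. Il2ra, the alpha chain of the IL-2 receptor, was at -1.09, -1.75 and -1.48 at 0 h and at 4.26, 3.35 and 3.40 at 24 h (5.12 ± 0.16, adjusted p 1.6e-07). Cd83, a stabiliser of surface MHC class II, rose by 1.38 ± 0.19, from 6.69, 6.45 and 6.70 to 8.60, 7.66 and 7.71. The transferrin receptor gene Tfrc rose by 2.71 ± 0.25, and the CD27 ligand gene Cd70, not well above background at 0 h, was at least 10.5-fold higher. Other activation markers did not follow them. Cd69, an early marker that holds S1PR1 inside the cell, fell by 1.29 ± 0.19 (adjusted p 0.00045), from 2.98, 1.85 and 2.43 to 1.76, 1.00 and 0.64, and Cd86, a ligand of CD28, was at 2.26, 1.66 and 1.86 and then 2.60, 1.99 and 1.83 (0.21 ± 0.16, adjusted p 0.30).

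The largest falls of this list were in ligands of lymphoid organisation and T cell help. Ltb, which codes for lymphotoxin beta, was at 8.96, 8.92 and 8.75 at 0 h and at 4.01, 2.95 and 3.27 at 24 h, a change of -5.46 ± 0.27 (adjusted p 7.8e-07). Its partner gene Lta fell by 4.22 ± 0.14 (adjusted p 1.7e-07). Icosl, the ligand of ICOS on T follicular helper cells, fell by 5.02 ± 0.20, from 5.33, 5.41 and 5.46 to 0.56, 0.22 and 0.35. For each of these 3 genes every 24 h array lay below every 0 h array.

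Of 25 cytokine, chemokine and cytokine receptor genes, 5 rose and 9 fell. Ccl4, a chemokine of the CC family, had the largest rise of all genes that were well above background on all 6 arrays, from -1.998, -2.26 and -1.69 to 5.84, 6.11 and 5.25 (7.71 ± 0.30, adjusted p 2.4e-07). Its neighbour Ccl3 changed by 7.64 ± 0.47 and was well above background on 1 of the 3 arrays at 0 h. Cish, a STAT5 target and feedback inhibitor, rose by 4.66 ± 0.22 and was above background on 2 arrays at 0 h. Receptor chains were among those that fell, with Il4ra at -3.11 ± 0.13 (adjusted p 3.7e-07) and Il10ra at -2.51 ± 0.16 (adjusted p 3.5e-06). Cxcl10, an interferon-induced chemokine, was not above background on any 24 h array and was at least 4.20-fold lower.

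**Figure D3:**
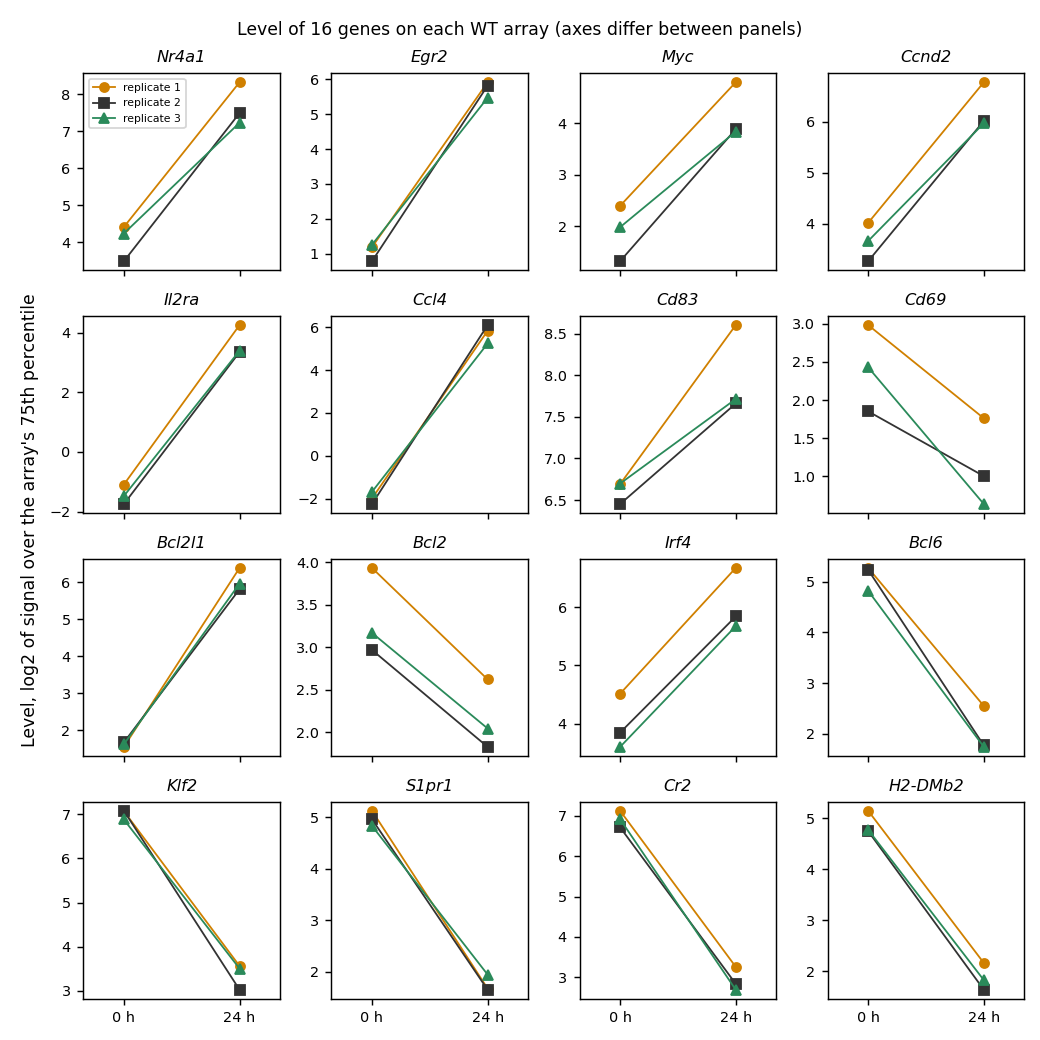
Levels (log2 of signal over the array's 75th percentile, y axis) of 16 genes on each WT array at 0 h and 24 h, lines joining arrays of 1 replicate number. Lines of a panel run the same way in all 16 genes, and 0 h and 24 h arrays do not overlap, with replicate 1 (slide 2) above the others in panels such as Bcl2 and Irf4.

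Genes of G1 progression rose while most CDK inhibitor genes did not pass or fell. Of 21 genes of G1 cyclins, their kinases, RB and E2F, 12 rose and 3 fell. Ccnd2, which codes for the D-type cyclin induced by BCR signals, was at 4.02, 3.27 and 3.66 at 0 h and at 6.78, 6.02 and 5.97 at 24 h (2.61 ± 0.30, adjusted p 9.3e-05). Its kinase gene Cdk4 rose by 1.66 ± 0.23 and Cdk6 by 1.61 ± 0.19, while the sister cyclin gene Ccnd3 changed by -0.25 ± 0.17 (adjusted p 0.24) and Ccnd1 fell by 3.02 ± 0.41 at low levels. Tfdp1, the DNA-binding partner of E2F, rose by 2.33 ± 0.30 and Cks1b, a subunit of the kinases and of the SKP2 ligase, by 2.29 ± 0.23. E2F genes split, with E2f1 going from 0.99, 0.41 and 0.43 to 2.82, 1.96 and 2.38 (1.77 ± 0.29, adjusted p 0.00078) and E2f2 from 5.29, 4.88 and 4.64 to 2.84, 2.10 and 2.64 (-2.41 ± 0.21, adjusted p 1.9e-05). Rbl2, which codes for the pocket protein p130 of quiescent cells, fell by 1.02 ± 0.14.

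Of the 7 CDK inhibitor genes tested, 1 rose and 2 fell. Cdkn2d, coding for p19, fell by 2.47 ± 0.18 (adjusted p 6.3e-06), and Cdkn1b, coding for p27, fell by 1.26 ± 0.16, from 4.20, 4.57 and 4.40 to 3.29, 2.96 and 3.14 (adjusted p 0.00014). Cdkn2c, coding for p18, changed by -0.45 ± 0.23 (adjusted p 0.14). Cdkn1a, coding for p21, was at -2.67, -2.85 and -2.90 and then at -1.78, -2.17 and -2.85, groups that met at the lowest 24 h array. Its change of 0.54 ± 0.18 (adjusted p 0.029) lost the call in 11 of 18 other settings, including without 0 h array 1 or 2 or 24 h array 1 or 2 (adjusted p up to 0.38).

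DNA replication genes rose almost throughout. Of 47 tested, 39 rose and 0 fell, with a median of 1.52. Orc1, the largest subunit of the origin recognition complex, was at -4.18, -6.05 and -5.83 at 0 h, above background on 1 array, and at -0.62, -1.43 and -0.86 at 24 h (4.39 ± 0.45, adjusted p 4.3e-05). Gins2, a subunit of the replicative helicase, went from 0.20, -1.11 and -1.03 to 3.35, 1.43 and 1.88 (2.87 ± 0.22, adjusted p 8.8e-06). Cdc6, the loader of the MCM helicase, rose by 2.65 ± 0.36 (adjusted p 0.00023), and Mcm3, a subunit of that helicase, by 2.01 ± 0.27. Genes of the same list that did not pass included Cdt1 (0.33 ± 0.23) and Pold1 (0.15 ± 0.22), both chosen after their values were seen.

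Of 47 mitosis genes 17 rose (36.2%, against 27.6% of all genes), 5 fell (10.6%, against 19.3%) and 25 did not pass (median 0.45). Counts of this list depended on the fit, with 3 higher and 2 lower without the block, 6 and 2 on slide 1 alone, and 10 higher without 0 h array 1, 0 h array 3 or 24 h array 3. In each of these fits the list's rising share was below that of all genes. Of all 22744 genes, 2606 rose without the block and 4107 on slide 1 alone. The falling count was 3 without 0 h array 1 or 2 and 2 without 24 h array 1. Melk, a kinase gene of proliferating cells, rose by 1.79 ± 0.20 (adjusted p 8.1e-05), the kinetochore gene Spc24 by 1.66 ± 0.26 and the spindle checkpoint gene Bub1b by 1.54 ± 0.21. Among the 5 that fell, the largest falls were those of Cdc25b, Ccnb2 and Ube2c. Cdc25b, the phosphatase that starts CDK1 activation, went from 3.75, 3.49 and 3.43 to 1.93, 1.16 and 1.47 (-2.04 ± 0.24, adjusted p 0.00011). Ccnb2, a mitotic cyclin gene, fell by 1.30 ± 0.25 (adjusted p 0.0018). Ube2c, the ubiquitin-conjugating enzyme of the anaphase-promoting complex, fell by 0.80 ± 0.25 (adjusted p 0.024) and lost its call without 0 h array 1 or 2 or 24 h array 1 or 2, on slide 1 alone, without the block and without the filter. The proliferation marker gene Mki67 was at 1.51, 1.67 and 2.02 at 0 h and at 1.36, 1.16 and 2.22 at 24 h (-0.15 ± 0.31, adjusted p 0.71), levels that overlapped.

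**Figure D4:**
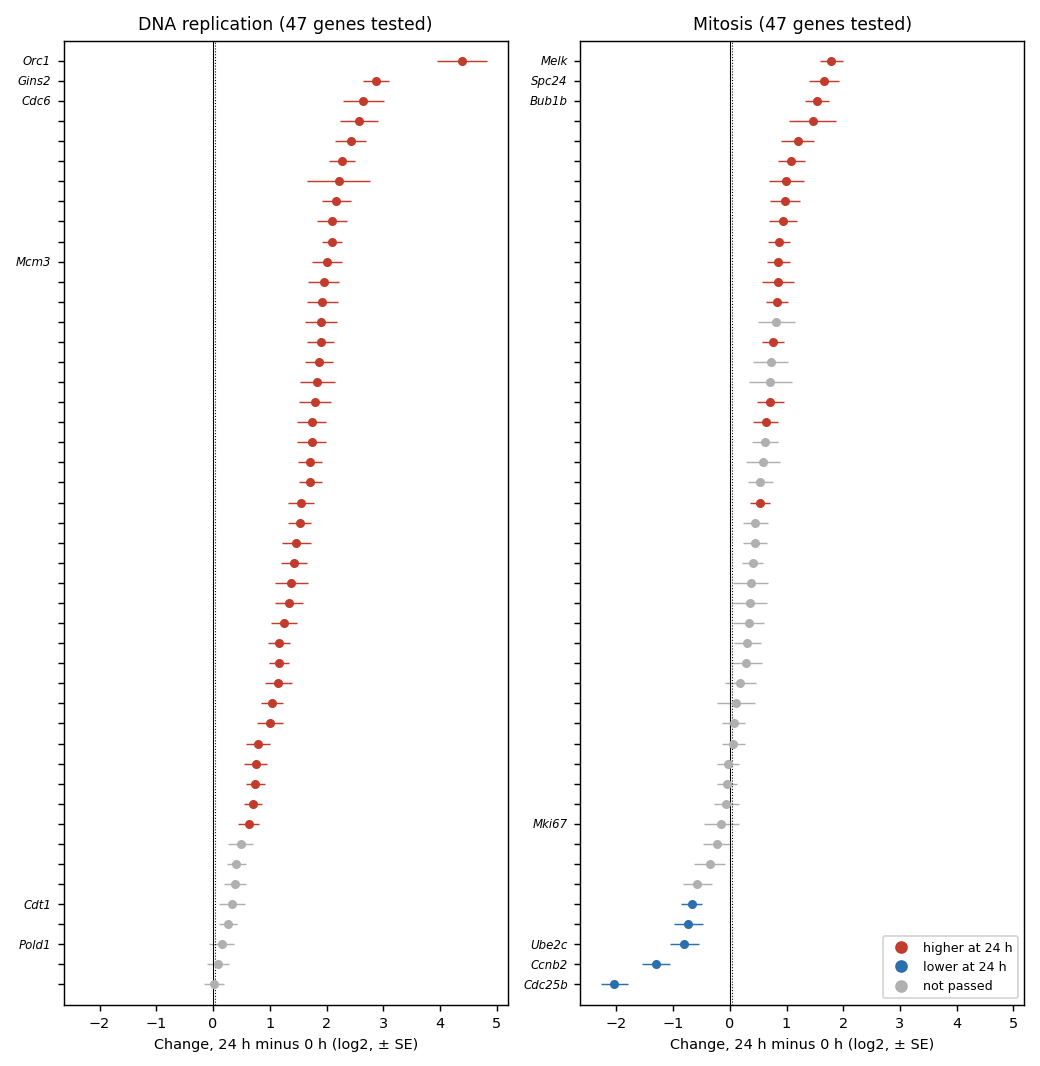
Change, 24 h minus 0 h (log2, x axis), of each tested DNA replication gene (left) and mitosis gene (right), sorted by change, with bars of 1 SE of the fit and names for the genes the text gives. The dotted line is the median of all genes (0.041); 39 replication genes and 17 mitosis genes are red (higher), 0 and 5 blue (lower), and grey genes did not pass.

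Promoters of the DNA replication, mitosis and ribosome biogenesis lists are shown for the motifs of E2F, the CHR-binding complexes and MYC, which are known to act on such genes. Windows are RefSeq promoters of 300 bases around a gene's start in assembly GRCm38.p6, written 5′ to 3′ on the gene's strand, with matches on either strand in capitals. Among 48 promoters of 38 of the 47 DNA replication genes, the E2F motif TTTCCCGC was in 7 (14.6%), against 1.07% of all 32851 promoters and 1.81% of 13308 promoters of tested genes. The other E2F form searched, TTTGGCGC, was in 7 as well (14.6%), against 0.514% and 0.872%. Each form was in 5 of 39 promoters of the genes that rose (12.8%) and in 2 of 9 of those that did not pass (22.2%). Mcm3, printed for its matches, holds both forms near its end, and Cdc6 holds 1. The promoter of Orc1, which had the largest rise of the list, holds neither.
Mcm3, chr1:20820263-20820562, minus strand: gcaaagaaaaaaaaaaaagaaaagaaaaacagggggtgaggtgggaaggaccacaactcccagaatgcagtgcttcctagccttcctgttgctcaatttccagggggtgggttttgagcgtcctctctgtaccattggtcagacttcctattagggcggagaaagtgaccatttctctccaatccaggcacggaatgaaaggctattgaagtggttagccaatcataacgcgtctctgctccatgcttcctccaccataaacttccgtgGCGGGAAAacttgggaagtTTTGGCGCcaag
Cdc6, chr11:98907901-98908200, plus strand: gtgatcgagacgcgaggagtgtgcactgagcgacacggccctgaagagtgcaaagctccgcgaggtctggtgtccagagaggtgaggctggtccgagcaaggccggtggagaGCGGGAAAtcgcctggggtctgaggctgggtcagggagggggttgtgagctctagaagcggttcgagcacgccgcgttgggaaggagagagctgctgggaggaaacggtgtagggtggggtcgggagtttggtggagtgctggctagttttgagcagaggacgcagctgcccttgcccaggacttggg
The CHR motif TTTGAA was in 30 of 41 promoters of 39 mitosis genes (73.2%), against 17.9% of all promoters and 12.7% of those of tested genes, and the CCAAT box, CCAAT, in 31 (75.6%), against 37.4% and 37.9%. Mitosis genes that rose and those that fell held the CHR letters at like shares, 10 of 15 and 4 of 5 promoters. Bub1b, which rose, and Ccnb2 and Ube2c, which fell, are printed for their matches. The promoters of Melk, which rose, and Cdc25b, which fell, hold no CHR letters, and that of Melk no CCAAT box.
Bub1b, chr2:118597961-118598260, plus strand: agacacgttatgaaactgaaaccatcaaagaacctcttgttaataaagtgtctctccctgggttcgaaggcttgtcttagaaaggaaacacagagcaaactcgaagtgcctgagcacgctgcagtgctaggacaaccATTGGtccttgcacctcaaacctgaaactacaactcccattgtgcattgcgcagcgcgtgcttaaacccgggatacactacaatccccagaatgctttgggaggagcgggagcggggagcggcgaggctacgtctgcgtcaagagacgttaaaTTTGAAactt
Ccnb2, chr9:70421505-70421804, minus strand: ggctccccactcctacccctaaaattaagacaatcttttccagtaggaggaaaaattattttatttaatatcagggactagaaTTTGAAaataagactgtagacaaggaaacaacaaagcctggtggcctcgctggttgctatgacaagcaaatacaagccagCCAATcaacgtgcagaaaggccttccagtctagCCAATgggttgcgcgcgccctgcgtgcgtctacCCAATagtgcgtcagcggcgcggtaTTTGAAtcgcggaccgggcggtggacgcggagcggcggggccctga
Ube2c, chr2:164769679-164769978, plus strand: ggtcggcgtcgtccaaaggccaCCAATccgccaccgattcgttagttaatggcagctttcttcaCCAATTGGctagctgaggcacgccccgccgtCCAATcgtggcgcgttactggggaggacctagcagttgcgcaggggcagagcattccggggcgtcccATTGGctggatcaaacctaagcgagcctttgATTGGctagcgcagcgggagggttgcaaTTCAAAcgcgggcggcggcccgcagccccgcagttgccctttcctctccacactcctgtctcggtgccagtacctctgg
The E-box CACGTG was in 8 of 38 promoters of 35 ribosome biogenesis genes (21.1%), against 7.15% of all promoters and 9.57% of those of tested genes. Nle1, a ribosome assembly factor gene that rose by 2.02 ± 0.22, is printed for its match. The promoters of Nop16, Nhp2 and Gnl3, the 3 largest rises of the list, hold no E-box.
Nle1, chr11:82908346-82908645, minus strand: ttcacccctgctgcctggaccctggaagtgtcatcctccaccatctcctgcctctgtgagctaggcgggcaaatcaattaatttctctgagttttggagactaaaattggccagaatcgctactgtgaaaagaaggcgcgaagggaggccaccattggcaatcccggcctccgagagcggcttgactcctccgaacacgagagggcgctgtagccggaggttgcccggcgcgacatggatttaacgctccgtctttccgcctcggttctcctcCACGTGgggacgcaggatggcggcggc
A match describes the letters and is not a measured binding site, and no match says only that the letters are not in this window. These shares carry no test.

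Myc, which codes for the transcription factor that drives ribosome and nucleotide synthesis genes, rose by 2.28 ± 0.29 (adjusted p 0.00018), from 2.39, 1.31 and 1.98 to 4.80, 3.89 and 3.84. It was the only 1 of 9 genes of the MYC network to rise, and 5 fell, a count of 0 without the block and of 2 or 3 on slide 1 alone or without any 1 of the 6 WT arrays. Mxd3, an antagonist of MYC at low levels, fell by 1.59 ± 0.30, Mxd1 by 0.75 ± 0.23 and Mga by 0.57 ± 0.14, each a call lost without the block. Mxd1 also lost its call without 0 h array 2 or 3 or 24 h array 2.

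Ribosome biogenesis genes rose in 39 of 40 cases and fell in 0, with a median of 1.59. Nop16, a factor of the large subunit, went from 2.77, 1.87 and 1.804 to 5.51, 4.002 and 3.99 (2.35 ± 0.21, adjusted p 2.0e-05). Nhp2, a protein of box H/ACA particles, was at 5.74, 5.58 and 5.43 at 0 h and at 8.51, 7.62 and 7.55 at 24 h (2.31 ± 0.21), and Gnl3, the gene of nucleostemin, rose by 2.23 ± 0.22. In these 3 genes replicate 1 was the highest of its group at 0 h and at 24 h. Noc3l, the gene that did not pass, changed by -0.34 ± 0.19.

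Genes that charge tRNAs and start translation moved the same way. Of 20 cytosolic aminoacyl-tRNA synthetase genes 19 rose (12 without the block), and of 17 initiation factor genes 16 rose, and 0 of either list fell. Aars, the alanyl-tRNA synthetase gene, rose by 1.56 ± 0.15 and Yars, the tyrosyl one, by 1.75 ± 0.23. Eprs rose by 1.60 ± 0.19, from -1.67, 0.88 and 1.06 to 0.26, 2.28 and 2.53. Its slide 2 array lay far below the others in both groups, so the groups overlapped, and the call was lost without the block (adjusted p 0.26). Eif4a1, the helicase of the cap-binding complex, went from 5.80, 5.35 and 5.34 to 7.60, 7.08 and 7.08 (1.75 ± 0.17), Eif5a rose by 1.82 ± 0.21 and Eif2b3 by 1.95 ± 0.22. Amino acid transporter genes rose in 7 of 9 cases (2 without the block and 3 on slide 1 alone). Slc7a5, the light chain of the large neutral amino acid transporter, rose by 2.61 ± 0.16 (adjusted p 2.5e-06), from -0.82, -0.99 and -0.74 to 1.96, 1.66 and 1.65. Slc1a5, a glutamine carrier gene, rose by 1.21 ± 0.20 and Slc1a4 rose by 1.12 ± 0.21, calls lost without the block.

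Nucleotide, serine and one-carbon synthesis was the 1 list of those described in which all tested genes, 31 of 31, rose (22 without the block). Shmt1, the cytosolic serine hydroxymethyltransferase gene, rose by 2.91 ± 0.31 (adjusted p 5.3e-05), from -0.61, -1.22 and -1.35 to 2.62, 1.46 and 1.47. Mthfd2, its mitochondrial folate partner, rose by 2.43 ± 0.18, and Ctps, the CTP synthase gene, by 2.25 ± 0.23.

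Cholesterol synthesis and uptake genes rose in 20 of 22 cases and fell in 0, with a median of 1.38. Idi1, an isomerase gene of isoprenoid units, went from 2.66, 2.27 and 2.34 to 5.29, 4.53 and 4.54 (2.36 ± 0.20, adjusted p 1.4e-05). Sqle, the squalene epoxidase gene, rose by 2.17 ± 0.20.

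Of 18 genes of glycolysis and glucose uptake, 11 rose (61.1%, against 27.6% of all genes) and 3 fell (16.7%, against 19.3%). The falling count was 0 without the block and 1 without 24 h array 3. Those 3 genes, Slc2a3, Slc2a1 and Slc16a1, code for membrane carriers of glucose or monocarboxylates. Hk2, a hexokinase gene, went from -0.37, -1.08 and -0.61 to 2.30, 1.68 and 1.78 (2.60 ± 0.19, adjusted p 6.1e-06). Pfkp, a phosphofructokinase gene, rose by 2.09 ± 0.16, Pgk1 by 1.79 ± 0.22 and Ldha, the lactate dehydrogenase gene, by 1.49 ± 0.18. Slc2a3, coding for GLUT3, fell by 1.08 ± 0.19, Slc2a1, coding for GLUT1, by 0.82 ± 0.24 and Slc16a1, coding for MCT1, by 0.58 ± 0.16. Slc2a1 lost its call without 0 h array 2 or 24 h array 1 or 3, and Slc16a1 without 0 h array 3 or 24 h array 2 or 3.

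Mitochondrial and protein turnover machinery rose by smaller amounts. Of 80 oxidative phosphorylation genes 71 rose (median 0.91), of 77 mitochondrial ribosomal protein genes 70 (median 0.98) and of 37 proteasome genes 33 (median 1.13), while 0, 0 and 2 fell. Without the block 20, 20 and 16 of them rose, and on slide 1 alone 37, 44 and 30. Medians on slides 1 and 2 were 0.67 and 1.34 for oxidative phosphorylation and 0.78 and 1.39 for mitochondrial ribosomal proteins. Uqcr10, a subunit of complex III, rose by 1.95 ± 0.23, Mrps6, of the small mitochondrial subunit, by 2.07 ± 0.20, and Psma5, of the proteasome core, by 1.61 ± 0.20. The 2 proteasome genes that fell were Psmb10 (-1.16 ± 0.20) and Psmb9 (-1.13 ± 0.17), both catalytic subunits of the interferon-inducible immunoproteasome. Both calls were lost without the block.

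Cytosolic ribosomal protein genes rose in 34 of 77 cases and fell in 0, with a median of 0.47. This count was 2 without the block, 8 on slide 1 alone, 12 without 0 h array 1, 17 without 0 h array 3 and 10 without 24 h array 1, and quantile normalization called 13 higher and 4 lower. In each of these fits the rising share of the list was below that of all genes. Near-identical pseudogene copies can share probes of this family. Rps27l, a p53-responsive paralog, rose by 1.56 ± 0.21 and Rps2 by 1.11 ± 0.18.

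Unfolded protein response genes rose in 12 of 24 cases (4 without the block and 5 on slide 1 alone) and fell in 1. The 3 largest rises, Chac1, Asns and Trib3, are genes known as targets of the amino acid response factor ATF4. Chac1, which degrades glutathione, went from -3.59, -3.36 and -3.91 to 0.28, 0.50 and -0.65 (3.66 ± 0.27, adjusted p 6.4e-06). Asns, the asparagine synthetase gene, rose by 2.50 ± 0.24 and Trib3, a pseudokinase gene, by 1.94 ± 0.22. Herpud1, of the ER degradation machinery, fell by 0.48 ± 0.16 and lost its call without 0 h array 2 or 3 or 24 h array 2 or 3.

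Quiescence factors fell in 16 of 24 cases and rose in 4 (1 without the block, and 2 without 0 h array 1 or 3 or 24 h array 1 or 2), with a median of -0.955. Klf2, the zinc finger factor that keeps lymphocytes quiescent and recirculating, was at 7.07, 7.08 and 6.88 at 0 h and at 3.56, 3.02 and 3.5 at 24 h (-3.65 ± 0.16, adjusted p 4.2e-07). Tsc22d3, coding for the glucocorticoid-induced leucine zipper GILZ, fell by 4.13 ± 0.27, from 6.47, 5.82 and 6.96 to 2.86, 1.94 and 2.08. Pik3ip1, an inhibitor of PI3K, fell by 2.91 ± 0.25, and Foxo1, a target of AKT that supports the naive state, by 1.47 ± 0.12. Groups of these 4 genes did not overlap. Klf9 rose by 0.85 ± 0.17, Tob2 by 0.84 ± 0.14 and Slfn2 by 0.63 ± 0.18; the calls of Tob2 and Slfn2 were lost without the block, and that of Slfn2 also without 0 h array 1 or 3 or 24 h array 1 or 2.

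Homing and trafficking receptors fell in 11 of 18 cases and rose in 3, with a median of -1.55. Itgb7, an integrin chain of gut homing, fell by 4.29 ± 0.17, from 6.23, 6.02 and 5.70 to 1.98, 1.79 and 1.30. S1pr1, the receptor for egress from lymphoid tissue, fell by 3.21 ± 0.26 (adjusted p 1.1e-05). The chemokine receptor genes Ccr7 and Ccr6 did not share these falls. Ccr7, which leads activated B cells to the T zone, was at 7.11, 6.66 and 6.77 and then 7.55, 6.99 and 6.72 (0.24 ± 0.15, adjusted p 0.21), and Ccr6 rose by 1.18 ± 0.19. Itgb1 rose by 1.64 ± 0.18. Itgal rose by 0.52 ± 0.17 and lost its call in 10 settings, among them the removal of 0 h array 1 or of any 24 h array.

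MHC class II presentation genes all fell, 12 of 12 (9 without the block), with a median of -1.84. H2-DMb2, a chain of the peptide exchange factor H2-M, was at 5.15, 4.75 and 4.78 at 0 h and at 2.16, 1.63 and 1.82 at 24 h (-3.02 ± 0.14, adjusted p 5.5e-07). H2-DMa, its partner chain, fell by 2.63 ± 0.14 (adjusted p 9.3e-07). Ciita, the transactivator of the class II genes, was at -1.78, 3.67 and 3.70 at 0 h and at -5.04, 0.76 and 0.83 at 24 h. Every pair fell, but replicate 1, on slide 2, was over 5 log2 units below the others in both groups, so that the groups overlapped and the change of -3.01 ± 0.29 was not called without the block (adjusted p 0.44).

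Interferon-stimulated genes had the lowest median of the lists, -2.30, with 17 of 21 genes lower and 1 higher, counts that were the same without the block. Ifit3, an antiviral effector gene, was at 1.56, 0.92 and 0.94 at 0 h and at -4.74, -5.65 and -3.49 at 24 h (-5.77 ± 0.46, adjusted p 1.1e-05). These 24 h levels are low, and the change of Ifit3 ran from -6.33 to -2.95 across settings. Oasl2, an oligoadenylate synthetase-like gene, fell by 3.999 ± 0.19, from 0.86, 0.70 and 0.67 to -2.96, -3.41 and -3.40. Rsad2, coding for viperin, was not above background on any 24 h array and was at least 7.78-fold lower. Ifih1, a sensor of viral RNA, was the gene that rose (1.53 ± 0.22, adjusted p 0.00032). Isg15 changed by -0.02 ± 0.22 and was chosen after its value was seen.

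**Figure D5:**
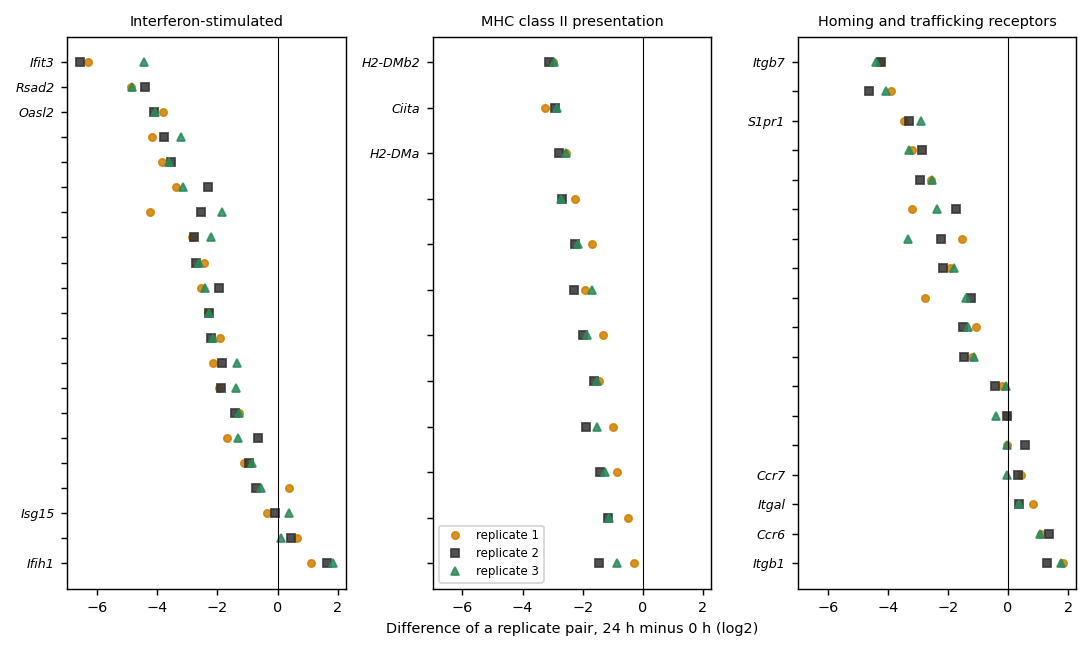
Difference of each replicate pair, 24 h minus 0 h (log2, x axis), for every tested gene of 3 lists, sorted by the change of the fit, with names for the genes the text gives. In the MHC class II panel all 3 pairs of all 12 genes lie left of 0, while Ifih1, Ccr6 and Itgb1 lie right of it in every pair.

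Transcription factors of the B lineage fell in 13 of 24 cases (8 without the block) and rose in 2. Bcl6, coding for a transcriptional repressor that the germinal center state needs, was at 5.27, 5.23 and 4.82 at 0 h and at 2.55, 1.77 and 1.74 at 24 h (-3.09 ± 0.22, adjusted p 5.9e-06). Ets1, which restrains plasma cell differentiation, fell by 2.36 ± 0.15, and Pax5, the B lineage commitment factor, by 1.70 ± 0.16, from 1.90, 0.97 and 1.30 to 0.16, -0.74 and -0.36. Tcf4, coding for the E protein E2-2, rose by 2.12 ± 0.13 (adjusted p 3.0e-06). Id3, an inhibitor of E proteins, rose by 0.72 ± 0.19 and lost its call without the block, on slide 1 alone, under quantile normalization and without 0 h array 3. Bach2, the gene deleted in the other genotype, was at 3.99, 3.40 and 3.69 and then at 3.71, 3.22 and 3.69 (-0.15 ± 0.17, adjusted p 0.48), levels that overlapped.

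Genes of plasma cells and class switching fell in 8 of 16 cases (5 without the block) and rose in 3. Irf4, which codes for a factor needed at rising doses for activation and then for plasma cells, rose by 2.08 ± 0.14 (adjusted p 4.1e-06), from 4.51, 3.84 and 3.60 to 6.68, 5.84 and 5.68. Prdm1, coding for the plasma cell regulator BLIMP1, was at -1.84, -1.51 and -0.99 and then at -3.12, -2.10 and -1.45 (-0.78 ± 0.31, adjusted p 0.062). It passed the test as lower in 5 other settings (adjusted p down to 0.026). Jchain, coding for the joining chain of secreted IgM, fell by 3.38 ± 0.38 (adjusted p 7.5e-05) and Ly6c1 by 2.65 ± 0.16. Ung, a uracil glycosylase gene of base excision and switching, rose by 1.24 ± 0.21. Creb3l2 rose by 0.53 ± 0.17, a call lost in 10 settings, among them without any 1 of 5 of the WT arrays.

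Survival genes of the BCL2 family diverged, with 10 of 19 genes rising and 4 falling (1 without the block). Bcl2l1, coding for BCL-XL, was at 1.55, 1.68 and 1.63 at 0 h and at 6.38, 5.81 and 5.96 at 24 h, a change of 4.43 ± 0.21 (adjusted p 6.9e-07). Bcl2a1d, a paralog of A1 whose copies probes may share, rose by 3.62 ± 0.21. The antiapoptotic genes of resting B cells fell, Bcl2 by 1.20 ± 0.14, from 3.94, 2.97 and 3.17 to 2.62, 1.83 and 2.04, and Mcl1 by 0.96 ± 0.15. Bcl2l11, coding for the killer BIM, rose by 2.42 ± 0.13 (adjusted p 1.1e-06). Casp8 fell by 0.80 ± 0.16. Without the block the calls of Mcl1 and Casp8 were lost.

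Of 19 p53 target and GADD45 genes, 8 rose (5 without the block) and 4 fell, with a median of 0.047 whose sign changed between settings (-0.173 to 0.162). Phlda3, an AKT inhibitor, rose by 2.16 ± 0.30, Bbc3, coding for PUMA, by 1.86 ± 0.16 and Gadd45b by 1.70 ± 0.17. Plk2, a polo-like kinase gene, fell by 2.34 ± 0.62 and lost its call without 0 h array 3. Trp53inp1 fell by 1.66 ± 0.16 and Gadd45g by 1.21 ± 0.25. DNA repair and checkpoint genes rose in 15 of 24 cases and fell in 0 (median 1.07). The largest rises were Rad51ap1 at 2.30 ± 0.31, Rad54l at 2.18 ± 0.29 and the exonuclease gene Exo1 at 2.11 ± 0.38.

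Histone genes, matched by a symbol pattern that also took in variant genes, did not rise as a group as the DNA replication genes did. Of 49 tested, 4 rose (2 without the block) and 14 fell (9), with a median of -0.22. H3c15 fell by 3.94 ± 0.29, H2bc4 by 2.65 ± 0.28 and H2ac18 by 2.45 ± 0.26, while H3c8 rose by 1.89 ± 0.34 and H2ac21 by 1.18 ± 0.25, a call lost without the block. The change of H3c15 ran from -4.31 to -1.7 across settings. The falling count was 30 under quantile normalization. Scaling to probes above background on all arrays gave 23 with their 75th percentile and 15 with their median. Members of this family are near-identical and can share probes. Of 309 Zfp zinc finger genes, a large and mixed family taken as a reference, 53 rose and 67 fell (20 and 16 without the block, 28 and 32 on slide 1 alone). The falling count was 39 without 0 h array 3 and 44 without 24 h array 2. Under the scaling to probes above background on all arrays it was 121 with their 75th percentile and 78 with their median.

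Among genes with a RefSeq symbol that were above background on all 6 arrays, the largest rises outside the lists were Ifitm2, an antiviral membrane protein gene, at 6.66 ± 0.32 and Hic1, a repressor gene, at 6.17 ± 0.21. Ifitm2 stood at -2.45, -3.73 and -2.29 at 0 h and at 4.21, 3.85 and 3.42 at 24 h. The tubulin gene Tubb6 rose by 6.01 ± 0.21, Tacc2 by 5.79 ± 0.23, the LIGHT gene Tnfsf14 by 5.36 ± 0.38, the metallothionein gene Mt1 by 4.95 ± 0.31, the enolase gene Eno3 by 4.84 ± 0.16 and Timd2 by 4.60 ± 0.23. Their adjusted p-values ran from 1.7e-07 (Hic1 and Eno3 among them) to 5.1e-06 for Tnfsf14. Of genes below background at 0 h, Pdgfa was at least 61.6-fold higher and Rbpms2 at least 27.6-fold. The next bounds belonged to Cyp1a1 (at least 26.9-fold) and Ahrr (at least 26.8-fold), both known targets of the aryl hydrocarbon receptor, whose gene Ahr rose by 4.13 ± 0.17.

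The largest fall among the same genes was that of Cacna1i, a T-type calcium channel gene, from 3.86, 3.52 and 3.43 to -2.81, -2.14 and -2.80 (-6.19 ± 0.34, adjusted p 1.3e-06). Spns2, a transporter gene of sphingosine-1-phosphate, fell by 5.15 ± 0.26 and Abcg1, a sterol exporter gene, by 4.76 ± 0.18. Vpreb3 fell by 4.57 ± 0.27, from 7.32, 7.03 and 6.83 to 3.30, 1.77 and 2.40, and the adhesion receptor gene Cd2 by 4.56 ± 0.16, from 6.72, 6.77 and 6.59 to 2.52, 1.89 and 1.99. Stac2 fell by 4.47 ± 0.14, Ngfr by 4.47 ± 0.26, Kbtbd11 by 4.43 ± 0.16, Padi2 by 4.42 ± 0.26 and Fry by 4.36 ± 0.27. Genes below background at 24 h had bounds of at least 16.4-fold lower for Tmprss13, 13.2-fold for the LIF receptor gene Lifr and 11.3-fold for B4galnt2.

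Where the WT response differed from that of Bach2-/- cells was tested as a difference of the 2 changes, each against the 0 h arrays of its own genotype. It passed for 974 genes (4.28%), 392 with a higher and 582 with a lower change in Bach2-/- cells, and 729 of them also changed in WT cells. The count rests on single arrays and on the block. It was 72 without the block, 395, 2898 and 258 without WT 0 h array 1, 2 and 3, and 311, 407 and 366 without WT 24 h array 1, 2 and 3. Hmox1, the heme oxygenase gene, rose in WT cells by 0.98 ± 0.15, from -0.75, -1.05 and -1.16 to -0.002, 0.11 and -0.14, and by 5.44 ± 0.21 more in Bach2-/- cells (adjusted p 4.8e-06). Given as the change in Bach2-/- cells minus that in WT cells, differences above 0 included Cdkn1a (4.56 ± 0.25), Pdgfa (3.53 ± 0.45) and Rsad2 (3.05 ± 0.44). Differences below 0 included Il5ra (-2.33 ± 0.27), Aqp1 (-3.31 ± 0.54), Kcnk10 (-3.27 ± 0.26), Scimp (-3.10 ± 0.50), Hfe (-3.00 ± 0.56). In WT cells alone Il5ra changed by -0.23 ± 0.19 and Scimp by -3.88 ± 0.35.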

How the data were processed

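Single-colour (Cy3) Agilent arrays of 12 samples, 3 per group, were read from the scanner files. Per the file headers, the deposited processed signal is an intensity already corrected for background by Feature Extraction (version 10.7.3.1 per the submitters' processing notes). Control spots were left out and spots of 1 probe averaged. Intensities were divided by the array's 75th percentile, floored at 0.01 and put on the log2 scale. Probes were kept where some group had them well above background on each of its 3 arrays (30735 of 55681), and a gene took its probe with the highest mean (22744 genes). RefSeq (GRCm38.p6) named 26413 probes; 29268 kept the name in the file.

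All 12 arrays were fitted in limma 3.58.1 (R 4.3.3) with group means and the replicate number as a block, and p-values were adjusted over all genes. Arrays of 1 number deviated together in all 18 such pairs (r 0.47 to 0.89). Each number lay on 1 slide, and arrays of different numbers on the same slide also deviated together (r 0.25 to 0.65). These ranges overlap, so part of the shared deviation is one of slide. Whether the numbers pair the samples beyond the slide was not tested. With the slide as block 10213 genes were called. A bound ("at least") sets the bright group's mean against, per array, the higher of the lowest signal well above background and the dim probe's own. The fit was tested on simulated data. The deposited value table, log2 values of the authors with centring not stated, served as an alternative; its column medians were -0.27 to 0.16 on WT arrays. The number of arrays limits the precision.

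Members and gene lists were chosen with earlier results of these data known. Genes named were the 12 largest rises and falls, the 4 largest bounds each way, up to 3 genes each way per list, a fixed set, and the 5 largest genotype differences each way; Mcm3, Cdt1, Pold1, Nle1, Noc3l, Isg15 and Ahr were added after their values were seen. Alternatives were no block, the slide as block, WT arrays alone, other scalings, quantile normalization, normexp (on median signals, offset 50, since no mean signal was used), other filters, the mean of a gene's probes, deposited values, slide 1 alone, and each WT array left out. Some genes under the naming rule are not reported here.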

Additional observations from a re-analysis of the deposited data

Results flagged for a closer look

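Of 188 genes named here, 40 had a WT response that differed from the response of Bach2-/- cells by a test of the difference itself (limma interaction contrast, adjusted p under 0.05). Over all genes tested the share was 4.28% (974 of 22744), and the genes named include some chosen for a large genotype difference, so the 40 is partly set by that choice. Each value is the change in Bach2-/- cells minus the change in WT cells, on the log2 scale. The difference was below 0 for 23 genes: Aqp1 (-3.31), Kcnk10 (-3.27), Scimp (-3.10), Hfe (-3.00), Tnfsf14 (-2.38), Gadd45b (-2.37), Il5ra (-2.33), Rbpms2 (-2.25), Nfkbid (-2.02), Bcl3 (-1.97), Eno3 (-1.66), Klf2 (-1.58), Nr4a1 (-1.53), Icosl (-1.35), Nop16 (-1.33), Nhp2 (-1.33), Gins2 (-1.32), Ccr7 (-1.27), Bank1 (-1.21), Bach2 (-1.20), Ldha (-1.06), Bbc3 (-1.03) and Cr2 (-1.02). It was above 0 for 17 genes: Hmox1 (5.44), Cdkn1a (4.56), Pdgfa (3.53), Rsad2 (3.05), Cyp1a1 (2.83), Isg15 (2.74), Ifih1 (2.43), Dusp4 (2.04), Oasl2 (2.02), Ngfr (1.74), Stac2 (1.68), Lta (1.62), Dusp6 (1.60), Chac1 (1.56), Trib3 (1.29), Klf9 (0.99) and H2-DMb2 (0.88). In Cdkn1a and Hmox1 the WT changes were 0.54 ± 0.18 and 0.98 ± 0.15, and those of Bach2-/- cells 5.10 ± 0.18 and 6.41 ± 0.15. Groups held 3 arrays each, too few for a test of single outlying arrays.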

How the results depend on the processing

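The direction and the call of the genes named held in 3503 of 3621 combinations of gene and alternative setting; 109 lost the call, 8 gained it and 1 reversed. The gains were those of Prdm1 in 5 settings, Ccnd3 in 2 and Cdkn2c in 1. The reversal was Zfp975, with a change of 0.0486 under the mean of a gene's probes. Without the replicate block 4667 genes were called (2606 higher and 2061 lower), and slide 1 alone called 7037 (4107 and 2930); other settings gave 8606 to 11008. The share of called genes that rose was 47.1% under scaling to the 75th percentile of probes above background on all arrays. The NF-kB median was -0.184 under quantile normalization, and the neutrophil marker median was 0.129 on slide 1 alone and, with single arrays left out, ran from -1.26 (without WT 0 h array 2) to 0.0706 (without WT 24 h array 1). The genotype difference of the response was called for 72 genes without the block, 127 on slide 1 alone and 215 without the filter. Scaling to probes above background on all arrays gave 1531 with their 75th percentile and 999 with their median. Counts were 1557 with normexp and 1600 with genes above background on all 12 arrays. With single arrays left out they ran from 258 to 2898. They were 395, 2898 and 258 without WT 0 h array 1, 2 and 3, and 311, 407 and 366 without WT 24 h array 1, 2 and 3. Apart from the block's own construction, the causes were not tested. Genes not well above background have only bounds.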
